A study of Mus musculus with 24 samples.

Results

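The insulin-like growth factor (IGF) genes described here are 10 of the 39017 genes in the deposited count matrix, chosen by name: the ligands Igf1 and Igf2, the receptors Igf1r and Igf2r, and the binding proteins Igfbp2 to Igfbp7. Each symbol matched 1 row of the matrix, and all 10 genes passed the filter on low counts in every comparison. They were followed in C57BL/6 mice, in subcutaneous adipose tissue at the 4th mammary gland, in a series that sets fat near a mammary tumor against distant fat in lean and obese animals. The 24 libraries of total RNA depleted of ribosomal RNA formed 6 groups of 4: on the diet labelled HFD, fat next to the tumor (peritumoral), fat of the opposite side (contralateral) and fat with no tumor (no-tumor), and the same 3 positions on Chow. The tumor cells, the composition of the diets and the age of the mice are not given in the sources used here.

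IGF1 and IGF2 are small secreted growth factors related to insulin, and both activate the tyrosine kinase receptor encoded by Igf1r. Igf2r, also known as the cation-independent mannose 6-phosphate receptor, takes IGF2 up for breakdown in lysosomes. Binding proteins hold the ligands in blood and matrix, can block or prolong their action, and are cut by proteases that free the ligand. Fat is a source of IGF1 outside the liver, and growth hormone acting through its receptor and STAT5 is a main inducer of Igf1.

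Library totals were 9.13 to 18.2 M counts, and 1 Chow peritumoral library was the shallowest. Levels are CPM (counts relative to the library total) scaled by TMM factors over all 24 libraries, and differences are log2 fold changes ± SE from edgeR's quasi-likelihood test on the libraries compared, with p-values adjusted by Benjamini and Hochberg over all genes tested and called below 0.05. Whether replicates are separate animals is not stated in the labels, and the p-values therefore cover only the spread among these libraries, which may be technical. All mature adipocyte markers listed were detected in each of the 6 groups, with summed levels of 11868 to 22169 CPM in HFD peritumoral fat and at least 13939 CPM in any library of the other groups. In the bulk RNA, fewer cells of a type and less RNA per cell cannot be told apart. Summed skeletal muscle markers ranged over 80.7 to 4996 CPM in Chow contralateral fat and 35.4 to 2738 CPM in Chow peritumoral fat. Chow contralateral replicate 2 stood apart from its group, with a mean chi-square per gene of 126 to 157 against the other 3 libraries, which had 13.7 to 24.4 among themselves. Without it, the 9 calls on IGF genes that used this library became 7, with the contralateral diet calls of Igf2r and Igfbp6 lost. The 7 comparisons of group pairs share libraries with one another, so their values stand side by side here and are not independent.

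Per kb of exon, the most abundant transcript was Igfbp7, with a mean of 212 CPM per kb over the 24 libraries. It was followed by Igfbp5 at 149.5, Igfbp6 at 95.3 and Igfbp4 at 80.2 CPM per kb. Igf1 had 27.4, Igfbp3 22.9, Igf2r 17.5 and Igf1r 9.25 CPM per kb. The lowest levels were those of Igfbp2 at 2.17 and Igf2 at 1.06 CPM per kb. Across the 6 groups, mean levels differed most for Igfbp3, by 6.83-fold between HFD contralateral and Chow no-tumor fat, then for Igfbp2 by 4.12-fold and for Igfbp6 by 3.33-fold. Igfbp7 differed least, by 1.12-fold.

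**Figure D1:**
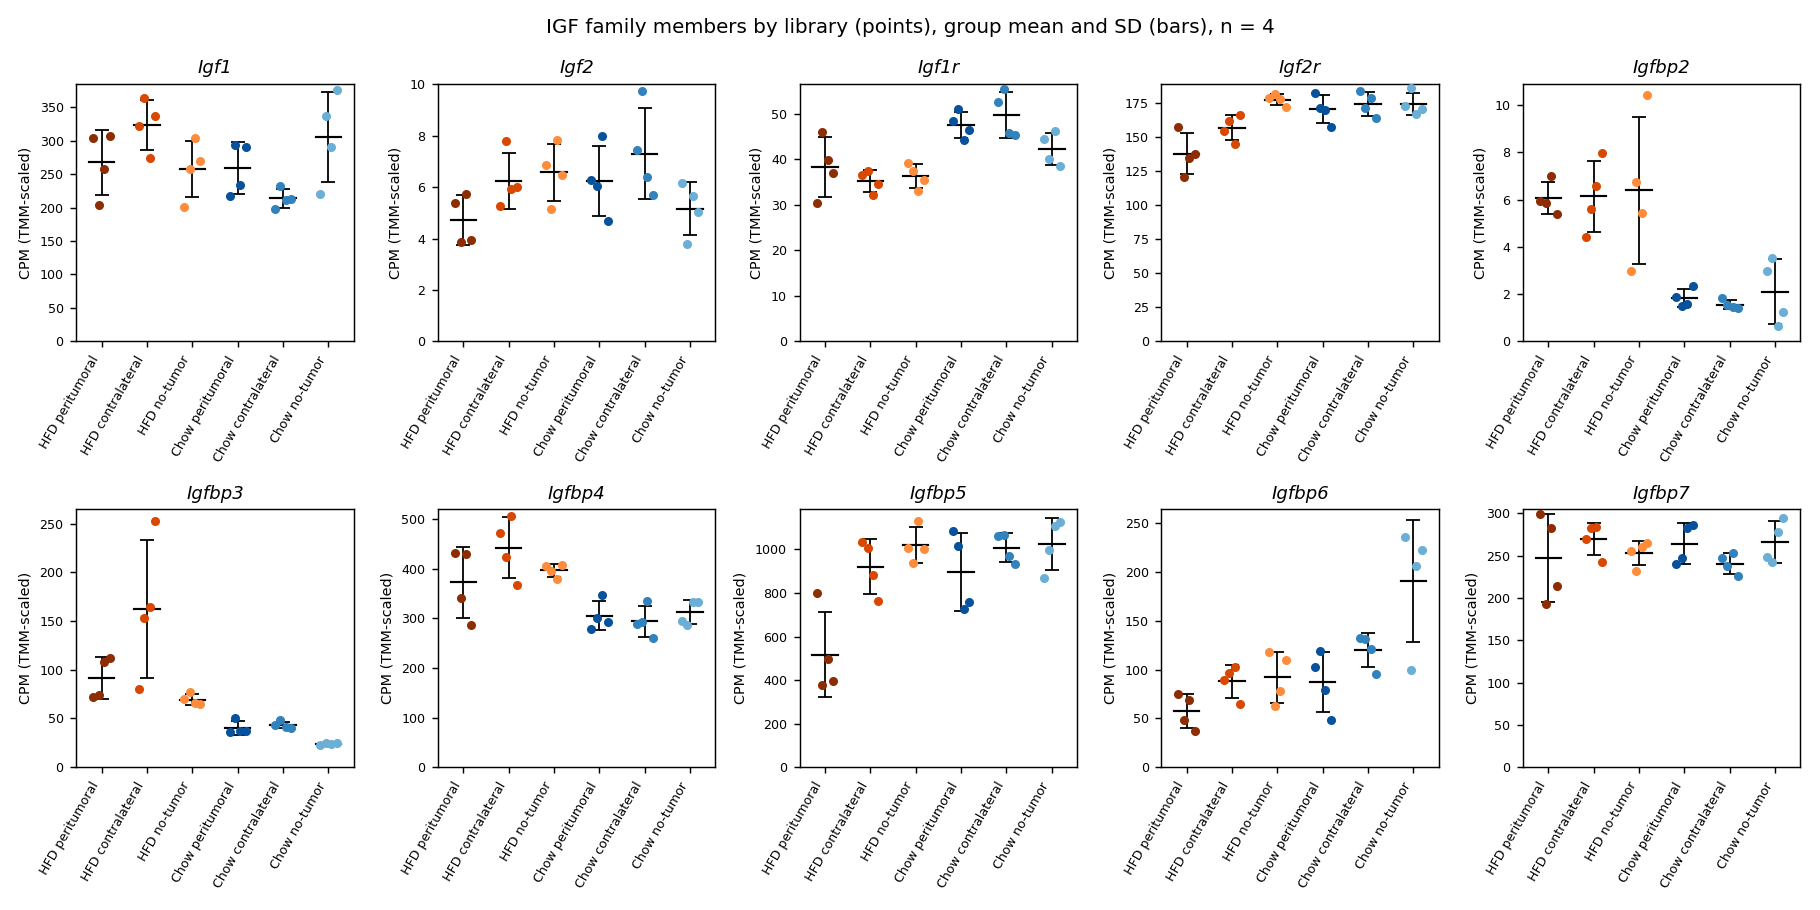
Level of each IGF gene (y axis, TMM-scaled CPM on a linear axis from 0) in the 6 diet and position groups (x axis); points are the 4 libraries of a group, the long bar is their mean and the error bar 1 SD. All 12 HFD libraries lie above all 12 Chow libraries for Igfbp3, and HFD peritumoral fat has the lowest Igfbp5 mean, 517 CPM.

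In contralateral fat, 7 of the 10 IGF genes differed between HFD and Chow, 4 higher (Igf1, Igfbp2, Igfbp3, Igfbp4) and 3 lower (Igf1r, Igf2r, Igfbp6), where 49.3% of all 15913 genes tested passed. In peritumoral fat 4 differed, with Igfbp2 and Igfbp3 higher and Igf2r and Igfbp5 lower, against 33.6% of 15919 genes. In no-tumor fat Igfbp3 and Igfbp4 were higher and none of the 10 was lower, against 24.9% of 15827 genes. By direction, 24.5% of all genes were higher and 24.8% lower on HFD in contralateral fat, 16.4% higher and 17.2% lower in peritumoral fat, and 13.6% higher and 11.3% lower in no-tumor fat. The libraries of both diets did not overlap for 5 of the 10 in contralateral, 3 in peritumoral and 2 in no-tumor fat, where 46.2%, 33.3% and 27.4% of all genes did not overlap. The median log2 fold change of the 10 was -0.020 in contralateral, -0.24 in peritumoral and 0.023 in no-tumor fat, beside -0.012, 0.017 and -0.016 over all genes tested.

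**Figure D2:**
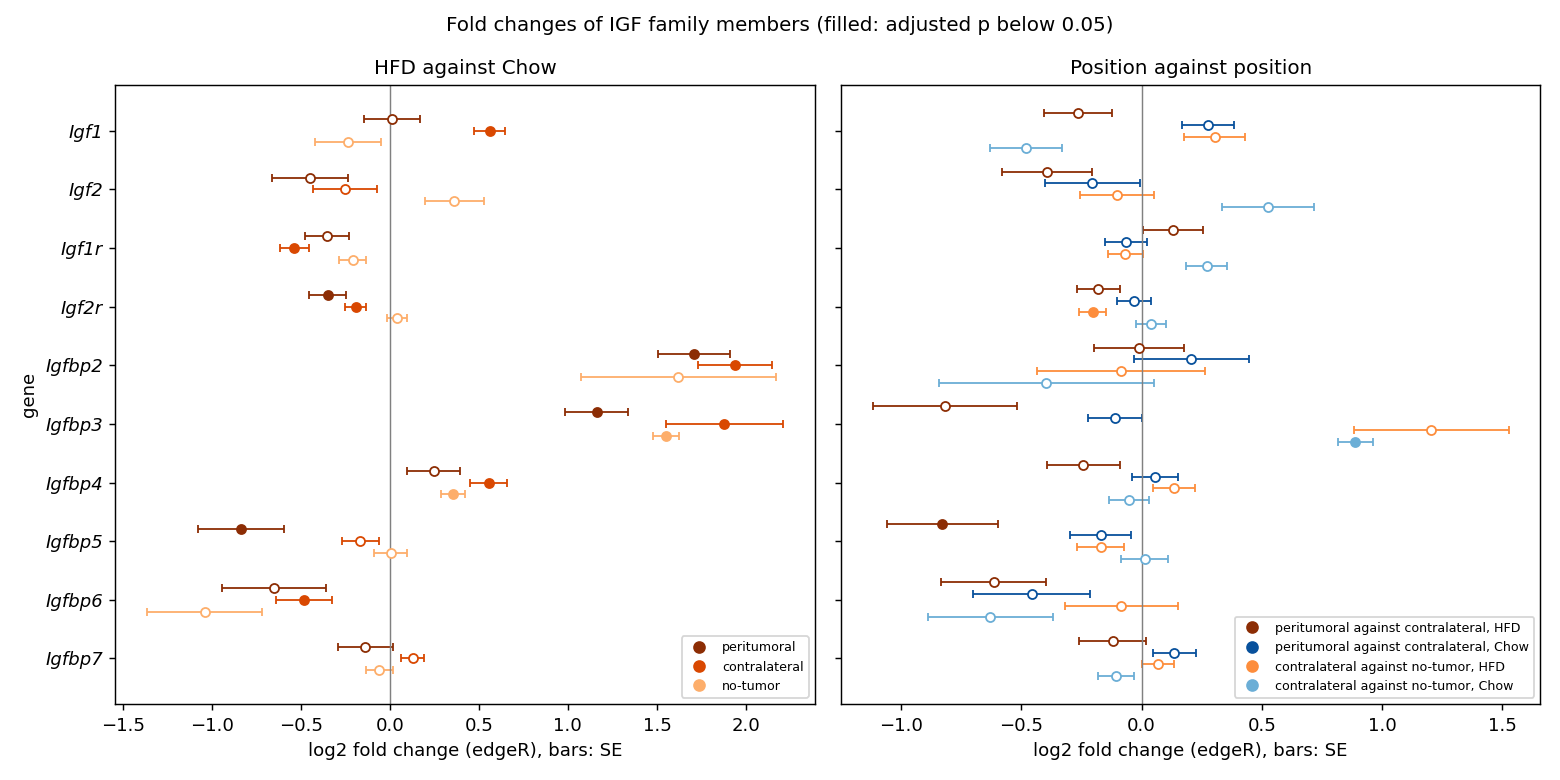
log2 fold changes (x axis, edgeR) with SE bars of the 10 IGF genes (y axis) for HFD against Chow at the 3 positions (left) and for position against position within each diet (right); filled points have an adjusted p below 0.05. Igfbp2 and Igfbp3 lie right of 1 in all 3 diet comparisons, and the position comparisons have 3 filled points.

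Igf1 (ENSMUSG00000020053, chr10:87858265-87937042, plus strand, mm10) was higher on HFD in contralateral fat and was not called at the other positions. The 4 HFD contralateral libraries, replicates 1 to 4 in order here and below, had 321, 363, 274 and 337 CPM, against 197, 232, 212 and 213 CPM in Chow contralateral fat. All 4 HFD libraries were above all 4 Chow libraries, a log2 difference of 0.56 ± 0.087 (adjusted p = 0.000318). In no-tumor fat the means were 258 ± 42.5 CPM on HFD and 306 ± 67.2 CPM on Chow (SD, n = 4 each), with a log2 difference of -0.24 ± 0.19 (adjusted p = 0.404), and the libraries overlapped. In peritumoral fat they were 268 ± 48.5 CPM on HFD and 259 ± 38.8 CPM on Chow, a log2 difference of 0.01 ± 0.16 (adjusted p = 0.968).

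The diet difference in Igf1 was itself larger in contralateral than in no-tumor fat, by 0.80 ± 0.21 on the log2 scale (adjusted p = 0.0177). It was the only 1 of the 10 called in that interaction, where 19.9% of 16676 genes passed, 9.94% in each direction. Neither side of it passed alone: contralateral against no-tumor fat gave 0.30 ± 0.13 on HFD (adjusted p = 0.186) and -0.48 ± 0.15 on Chow (adjusted p = 0.0789). The Chow difference passed without Chow no-tumor replicate 1, the lowest of its group (-0.62 ± 0.096, adjusted p = 0.0152), and with DESeq2 (-0.50, adjusted p = 0.0162). Without Chow contralateral replicate 2 the interaction was 0.85 ± 0.23 (adjusted p = 0.0209). In the same interaction, 9 of 12 endothelial, 6 of 9 mural cell and 3 of 10 tested mammary epithelium markers were lower, and 5 of 12 mature adipocyte and 7 of 12 macrophage markers were higher. Summed adipocyte markers were 24873 to 28733 CPM in HFD contralateral, 22001 to 23475 in HFD no-tumor, 14410.2 to 17235 in Chow contralateral and 15742 to 18548 CPM in Chow no-tumor fat. The part of these markers in the Igf1 result was not tested.

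Igf2 (ENSMUSG00000048583, chr7:142650766-142666816, minus strand) was the lowest of the IGF genes per kb of exon, with 40 to 130 counts per library. Group means lay between 4.73 ± 0.976 CPM in HFD peritumoral and 7.31 ± 1.77 CPM in Chow contralateral fat, and neighbours in that order overlapped throughout. None of the 9 comparisons called it, and its lowest adjusted p was 0.102, for the interaction of diet with tumor bearing. The antisense gene Igf2os shares 98 of the 5723 exon bases of Igf2. With no strand setting stated for the counts, reads of the pair within those shared bases cannot be told apart. Igf2os averaged 0.0371 CPM.

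Igf1r (ENSMUSG00000005533, chr7:67952859-68226780, plus strand) ran opposite to its ligand in contralateral fat. HFD contralateral libraries had 36.5, 37.4, 32.1 and 34.5 CPM, against 52.6, 55.3, 45.7 and 45.3 CPM in Chow contralateral fat. Every HFD library was below every Chow library, and the log2 difference was -0.54 ± 0.082 (adjusted p = 0.00028). In peritumoral fat the means were 38.2 ± 6.52 CPM on HFD and 47.5 ± 2.82 CPM on Chow, and the difference of -0.35 ± 0.12 missed the threshold (adjusted p = 0.0503). It passed without HFD peritumoral replicate 2, the library with the highest level of its group (-0.46 ± 0.12, adjusted p = 0.0167), and with all 24 libraries in 1 fit (-0.27, adjusted p = 0.0299). In no-tumor fat the means were 36.2 ± 2.66 CPM on HFD and 42.2 ± 3.62 CPM on Chow, with a log2 difference of -0.21 ± 0.074 (adjusted p = 0.0587). It passed without Chow no-tumor replicate 2 (-0.23 ± 0.077, adjusted p = 0.0381) or replicate 4 (-0.25 ± 0.076, adjusted p = 0.0377). The interaction of diet with tumor bearing was -0.32 ± 0.11 for Igf1r (adjusted p = 0.052). It passed without 1 of HFD no-tumor replicate 3, Chow contralateral replicates 3 and 4 and Chow no-tumor replicate 3, at -0.38, -0.38, -0.38 and -0.36, with adjusted p of 0.0372, 0.0331, 0.0374 and 0.0416 in that order.

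Igf2r (ENSMUSG00000023830, chr17:12682406-12769664, minus strand) had its lowest level in HFD peritumoral fat, with 157, 121, 135 and 137 CPM, against 182, 171, 169 and 157 CPM in Chow peritumoral fat. The groups did not overlap, though the highest HFD library (157.2) and the lowest Chow library (157.5) nearly met. The log2 difference was -0.35 ± 0.10 in peritumoral (adjusted p = 0.0264), -0.19 ± 0.058 in contralateral (adjusted p = 0.0175) and 0.040 ± 0.057 in no-tumor fat (adjusted p = 0.659). On HFD, contralateral libraries had 154, 161, 145 and 166 CPM, against 179, 181, 178 and 171 CPM in no-tumor fat, without overlap, a log2 difference of -0.20 ± 0.054 (adjusted p = 0.046). It was the only 1 of the 10 called between those groups, where 6.08% of 15718 genes passed (2.72% higher and 3.37% lower in contralateral fat), and 2 of the 10 did not overlap where 15.8% of all genes did not. These calls were close to the threshold. The contralateral diet call was lost without Chow contralateral replicate 2 (-0.17 ± 0.068, adjusted p = 0.0689) and with all 24 libraries in 1 fit (-0.15, adjusted p = 0.0825). The peritumoral diet call was lost without HFD peritumoral replicate 2, 3 or 4 or Chow peritumoral replicate 1 or 2, with values from -0.35 to -0.30 and adjusted p of 0.0530 to 0.0759. On HFD, the difference between contralateral and no-tumor fat was lost without HFD contralateral replicate 1, 2 or 3 or any HFD no-tumor library, with values from -0.22 to -0.17 and adjusted p of 0.0658 to 0.125, and with all 24 libraries in 1 fit (-0.20, adjusted p = 0.165). Peritumoral against contralateral fat on HFD gave -0.18 ± 0.090 (adjusted p = 0.151), which passed without HFD peritumoral replicate 1 (-0.25, adjusted p = 0.0349). The interaction of diet with tumor bearing was -0.23 ± 0.080 (adjusted p = 0.0534). It passed without 1 of HFD contralateral replicate 4, HFD no-tumor replicate 4, Chow contralateral replicate 4 and Chow no-tumor replicate 2, at -0.27, -0.26, -0.27 and -0.27, with adjusted p of 0.0309, 0.0422, 0.0374 and 0.0174 in that order, and with DESeq2 (-0.21, adjusted p = 0.0426).

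Airn, a noncoding RNA transcribed against Igf2r and known for silencing the paternal Igf2r copy in mouse, shares 0 exon bases with Igf2r in the deposited annotation but lies on the opposite strand. Airn had 9.59 ± 1.24 CPM in HFD contralateral fat and 23.8 ± 1.18 CPM in Chow contralateral fat, a log2 difference of -1.35 ± 0.096 (adjusted p = 1.95e-06). In peritumoral fat it had 8.78 ± 1.16 CPM on HFD and 22.5 ± 6.92 CPM on Chow (-1.40 ± 0.21, adjusted p = 0.00133). Its diet difference was more negative in contralateral than in no-tumor fat, with an interaction of -1.24 ± 0.16 (adjusted p = 0.000261). In no-tumor fat Airn had 14.9 ± 1.27 CPM on HFD and 16.1 ± 2.56 CPM on Chow. On Chow, Airn was higher in contralateral than in no-tumor fat (0.60 ± 0.11, adjusted p = 0.0147). Igf2r gave 0.039 ± 0.062 there (adjusted p = 0.716). On HFD, Airn was lower in contralateral than in no-tumor fat (-0.66 ± 0.10, adjusted p = 0.00556). Airn and Igf2r were both lower on HFD in contralateral and peritumoral fat, with the strand setting of the counts unknown.

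Igfbp3, the main carrier of IGFs in serum, was the only 1 of the 10 whose 12 HFD libraries did not overlap its 12 Chow libraries. Its promoter window and those of Igfbp2 and Igfbp4 are shown because these are the binding proteins that were higher on HFD in contralateral fat. RefSeq gave a promoter for 10 of 10 genes on GRCm38.p6. Each window is the 250 bases before the start site nearest to the deposited gene start, on the gene's strand. Capitals mark a TATA box (TATAAA), its variant TATATA or a GC box (GGGCGG), on either strand.
Igfbp2 (chr1:72824230-72824479, plus strand): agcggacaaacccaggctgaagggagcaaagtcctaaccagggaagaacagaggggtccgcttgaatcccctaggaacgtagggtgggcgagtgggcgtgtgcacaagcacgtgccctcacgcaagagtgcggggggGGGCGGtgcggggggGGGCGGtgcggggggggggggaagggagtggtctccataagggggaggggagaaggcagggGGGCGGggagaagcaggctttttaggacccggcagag
Igfbp3 (chr11:7213924-7214173, minus strand): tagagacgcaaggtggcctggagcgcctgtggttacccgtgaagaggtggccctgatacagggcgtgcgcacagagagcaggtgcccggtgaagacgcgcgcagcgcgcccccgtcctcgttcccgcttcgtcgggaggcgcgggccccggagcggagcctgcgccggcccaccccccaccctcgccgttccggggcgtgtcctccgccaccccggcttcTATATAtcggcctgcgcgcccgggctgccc
Igfbp4 (chr11:99040994-99041243, plus strand): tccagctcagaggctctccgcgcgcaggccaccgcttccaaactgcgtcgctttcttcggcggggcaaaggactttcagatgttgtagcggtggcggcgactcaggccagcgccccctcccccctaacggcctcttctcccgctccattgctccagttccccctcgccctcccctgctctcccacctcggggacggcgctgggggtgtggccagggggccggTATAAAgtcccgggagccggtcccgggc
The Igfbp2 window holds 3 copies of GGGCGG, the core of a GC box, which 32.7% of 32851 RefSeq promoters of that length hold. The Igfbp4 window holds 1 TATAAA, found in 12.4% of all windows, and the Igfbp3 window holds 1 TATATA, found in 5.25%. Over the 10 genes, 4 windows hold GGGCGG (Igf1r, Igf2r, Igfbp2, Igfbp7), 2 hold TATAAA (Igfbp4, Igfbp6) and 1 holds TATATA. The letters TTCNNNGAA, a pattern STAT proteins bind, are in 0 of the 10 windows and in 7.02% of all windows. The RefSeq start site used for Igf1 lies 2846 bases inside the deposited gene, so sequence before the deposited start was not searched. For Igf1r it lies 602 bases before the deposited start. TATATA was added to the search after the windows had been seen, and these matches describe letters in the windows only.

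Igfbp3 (ENSMUSG00000020427, chr11:7206086-7213923, minus strand) had a lowest, median and highest level of 64.5, 78.9 and 253 CPM over the 12 HFD libraries, against 22.7, 36.7 and 50.4 CPM over the 12 Chow libraries. Every HFD library was above every Chow library. In contralateral fat they had 80.5, 153, 164 and 253 CPM on HFD, against 42.8, 47.9, 40.9 and 40.5 CPM on Chow, a log2 difference of 1.88 ± 0.33 (adjusted p = 0.00325). HFD contralateral replicate 1 was the lowest of its group and replicate 4 the highest. In peritumoral fat they had 72.4, 73.7, 108 and 112 CPM on HFD, against 35.6, 50.4, 36.6 and 36.9 CPM on Chow (1.16 ± 0.18, adjusted p = 0.00155). No-tumor fat had 69.5, 77.4, 65.6 and 64.5 CPM on HFD, against 22.7, 24.3, 23.4 and 24.8 CPM on Chow (1.55 ± 0.071, adjusted p = 1.26e-07).

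Position also separated Igfbp3 levels on Chow. Contralateral fat was above no-tumor fat by 0.89 ± 0.073 on the log2 scale (adjusted p = 0.000466), with all 4 contralateral libraries above all 4 no-tumor libraries. It was the only 1 of the 10 called there, against 7.95% of 15946 genes (4.93% higher and 3.02% lower in contralateral fat), and the only 1 without overlap, against 19% of all genes. On HFD the same difference was 1.21 ± 0.32, also without overlap, and missed the threshold (adjusted p = 0.0822). It passed without HFD contralateral replicate 1 (1.43 ± 0.18, adjusted p = 0.0109), with DESeq2 (1.21, adjusted p = 0.00426) and with all 24 libraries in 1 fit (1.21, adjusted p = 0.00803). The 2 differences were not shown to differ from each other, at 0.34 ± 0.34 (adjusted p = 0.514). Peritumoral against contralateral fat gave -0.82 ± 0.30 on HFD (adjusted p = 0.0648) and -0.11 ± 0.11 on Chow (adjusted p = 0.755). On HFD that difference passed without HFD contralateral replicate 1 (-1.03 ± 0.22, adjusted p = 0.0200), with DESeq2 (-0.81, adjusted p = 0.0224) and with all 24 libraries in 1 fit (-0.80, adjusted p = 0.00658).

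Igfbp2 (ENSMUSG00000039323, chr1:72824503-72852474, plus strand) is a binding protein made in liver, brain and fat among other tissues, and its gene lies next to Igfbp5 on chromosome 1, with 5457 bases between them. It was rare, with 10 to 177 counts per library. Contralateral fat had 4.42, 5.59, 6.59 and 7.96 CPM on HFD, against 1.84, 1.53, 1.44 and 1.41 CPM on Chow. Peritumoral fat had 5.96, 5.86, 7.0 and 5.39 CPM on HFD, against 1.86, 1.49, 1.6 and 2.34 CPM on Chow. All HFD libraries were above all Chow libraries at both positions, with log2 differences of 1.94 ± 0.21 (adjusted p = 2.61e-05) and 1.71 ± 0.20 (adjusted p = 0.000584). No-tumor fat was more variable, with 2.96, 6.75, 5.44 and 10.4 CPM on HFD, against 2.99, 3.51, 0.664 and 1.24 CPM on Chow. There 3 of 4 HFD libraries were above all Chow libraries, and the difference of 1.62 ± 0.55 missed the threshold (adjusted p = 0.0685). It passed without HFD no-tumor replicate 1, the lowest of its group (1.86 ± 0.49, adjusted p = 0.0371), with DESeq2 (1.62, adjusted p = 0.0415) and with all 24 libraries in 1 fit (1.65, adjusted p = 0.00211).

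Igfbp4 (ENSMUSG00000017493, chr11:99041244-99054392, plus strand), which mostly holds IGFs back from their receptor until it is cut, was called higher on HFD in contralateral and no-tumor fat. In contralateral fat it had 474, 425, 508 and 367 CPM on HFD, against 289, 293, 335 and 259.9 CPM on Chow. In no-tumor fat it had 405, 396, 379 and 407 CPM on HFD, against 296, 288, 334 and 334 CPM on Chow. No library overlapped at either position, and the log2 differences were 0.55 ± 0.11 (adjusted p = 0.00131) and 0.36 ± 0.066 (adjusted p = 0.00219). In peritumoral fat the means were 373 ± 71.6 CPM on HFD and 305 ± 29 CPM on Chow, 2 of 4 HFD libraries were above all Chow libraries, and the difference was 0.25 ± 0.15 (adjusted p = 0.213). It passed with all 24 libraries in 1 fit (0.32, adjusted p = 0.0203). The diet difference was not shown to depend on tumor side (-0.27 ± 0.18, adjusted p = 0.415).

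Igfbp5 (ENSMUSG00000026185, chr1:72857932-72874884, minus strand), which binds extracellular matrix as well as IGFs, was lowest in HFD peritumoral fat. The HFD peritumoral libraries had 799.9, 377, 497 and 393 CPM, against 1033, 1008, 882 and 763 CPM in HFD contralateral and 1087, 1014, 728 and 760.1 CPM in Chow peritumoral fat. Replicates 2 to 4 of HFD peritumoral fat were below every library of both other groups, and replicate 1 was above the lowest library of each. The log2 difference was -0.83 ± 0.23 against HFD contralateral fat (adjusted p = 0.0248) and -0.83 ± 0.24 against Chow peritumoral fat (adjusted p = 0.0242). It was the only 1 of the 10 called between the tumor sides on HFD, where 29.5% of 15627 genes passed (16.8% higher and 12.7% lower in peritumoral fat), and none of the 10 was without overlap there, against 31.5% of all genes. The call between the sides was lost without HFD peritumoral replicate 2, 3 or 4 or HFD contralateral replicate 1, 2 or 3, with values from -0.85 to -0.70 and adjusted p of 0.0516 to 0.0690. The diet call was lost without HFD peritumoral replicate 2, 3 or 4 or Chow peritumoral replicate 1 or 2, with values from -0.82 to -0.72 and adjusted p of 0.0509 to 0.0727.

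On Chow, peritumoral against contralateral fat gave -0.17 ± 0.13 for Igfbp5 (adjusted p = 0.669). None of the 10 was called or without overlap there, where 0% of 16057 genes passed by edgeR, 1381 genes had an unadjusted p below 0.05, DESeq2 called 15 genes and 5.13% of genes did not overlap. The diet by tumor side interaction for Igfbp5 was -0.64 ± 0.28 (adjusted p = 0.222), in a comparison where edgeR called 0% of 16859 genes, 3349 had an unadjusted p below 0.05 and DESeq2 called 727 genes and 0 of the 10. It passed without HFD peritumoral replicate 1 (-0.92 ± 0.21, adjusted p = 0.0123). Between HFD peritumoral and HFD contralateral fat, 10 of 12 mature adipocyte markers were lower, with summed levels of 11868 to 22169 CPM in peritumoral and 24873 to 28733 CPM in contralateral fat. Over all genes there, 16.8% were higher and 12.7% lower in peritumoral fat. In the same comparison 10 of 12 macrophage markers were higher (2778 to 3996 CPM in peritumoral, 1576 to 1978 CPM in contralateral fat), 5 of 12 stromal markers were higher and 5 of 9 mural cell markers were lower (647 to 924 CPM in peritumoral, 954 to 1334 CPM in contralateral fat). No marker of these 4 lists was at 0 in either group, and the part of these markers in the Igfbp5 result was not tested.

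Igfbp6 (ENSMUSG00000023046, chr15:102144362-102149511, plus strand), which prefers IGF2 over IGF1, had its highest levels in Chow no-tumor fat. No-tumor libraries had 118, 62.4, 77.8 and 109.8 CPM on HFD, against 236, 99.1, 206 and 223 CPM on Chow. Chow replicate 2 lay inside the HFD range, and the difference of -1.04 ± 0.32 missed the threshold (adjusted p = 0.0587). It passed without Chow no-tumor replicate 2 (-1.25 ± 0.24, adjusted p = 0.0126), with DESeq2 (-1.04, adjusted p = 0.0124) and with all 24 libraries in 1 fit (-1.01, adjusted p = 0.0164). Contralateral libraries had 89.5, 96.1, 103 and 64.2 CPM on HFD, against 132, 131, 121 and 95.5 CPM on Chow, a log2 difference of -0.48 ± 0.16 (adjusted p = 0.0341) with overlap. That call was lost without HFD contralateral replicate 1 or Chow contralateral replicate 1, 2 or 3, with values from -0.48 to -0.40 and adjusted p of 0.0670 to 0.102, and with all 24 libraries in 1 fit (-0.44, adjusted p = 0.217). In peritumoral fat the means were 57.3 ± 17.6 CPM on HFD and 87.4 ± 31 CPM on Chow (-0.65 ± 0.29, adjusted p = 0.11). This difference passed without Chow peritumoral replicate 4 (-0.84 ± 0.24, adjusted p = 0.0256). Peritumoral against contralateral fat on HFD gave -0.62 ± 0.22 (adjusted p = 0.0575), which passed without HFD peritumoral replicate 1 (-0.77, adjusted p = 0.0217) or HFD contralateral replicate 4 (-0.74, adjusted p = 0.0452) and with DESeq2 (-0.61, adjusted p = 0.0259). Contralateral against no-tumor fat on Chow gave -0.63 ± 0.26 (adjusted p = 0.171), which passed without Chow no-tumor replicate 2 (-0.84, adjusted p = 0.00251) and with DESeq2 (-0.64, adjusted p = 0.0335).

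Igfbp7 (ENSMUSG00000036256, chr5:77349240-77408045, minus strand), a matrix protein with low affinity for IGFs, was not called in any of the 9 comparisons. Group means lay between 241 ± 11.9 CPM in Chow contralateral and 270.0 ± 19.3 CPM in HFD contralateral fat, where the log2 difference was 0.13 ± 0.067 (adjusted p = 0.132). That difference passed without HFD contralateral replicate 4 (0.18 ± 0.056, adjusted p = 0.0213) and with DESeq2 (0.16, adjusted p = 0.0438). Igfbp7 shares 85 exon bases with Polr2b on the opposite strand, which averaged 70.5 CPM. Igfbp1, a liver binding protein whose gene lies 3539 bases from Igfbp3, had 0 counts in all 24 libraries. A count of 0 allows up to 3 counts per library, or 0.165 to 0.329 CPM, for counting error only.

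As a share of the 6 binding protein transcripts per kb, Igfbp3 made up 8.66 ± 4.34% in HFD contralateral and 2.48 ± 0.177% in Chow contralateral fat (SD, n = 4 each). It made up 6.66 ± 2.22% in HFD peritumoral and 2.41 ± 0.329% in Chow peritumoral fat, and 3.86 ± 0.594% in HFD no-tumor and 1.2 ± 0.176% in Chow no-tumor fat. Igfbp5 held 18.4 ± 3.28% in HFD peritumoral fat and 25.1% to 30.2% on average in the other groups. Igfbp6 held 14.2 ± 3.35% in HFD no-tumor and 26.3 ± 6.89% in Chow no-tumor fat. The summed level of the 6 was 458 ± 100.2 CPM per kb in HFD peritumoral, 611 ± 41.3 in HFD contralateral, 577 ± 37.7 in HFD no-tumor, 529 ± 34.8 in Chow peritumoral, 556 ± 37.6 in Chow contralateral and 641 ± 80.7 CPM per kb in Chow no-tumor fat. The sums of single libraries overlapped between the diets at all 3 positions. Binding protein transcripts outnumbered Igf1 by 18.9 ± 3.09-fold per kb in HFD contralateral and 25.8 ± 2.57-fold in Chow contralateral fat. The ratio was 17.1 ± 3.34 in HFD peritumoral and 20.6 ± 3.61 in Chow peritumoral fat. In no-tumor fat it was 22.7 ± 4.73 on HFD and 21.6 ± 5.69 on Chow. Ratios of single libraries overlapped between the diets at all 3 positions. No test was run on these shares, sums and ratios.

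**Figure D3:**
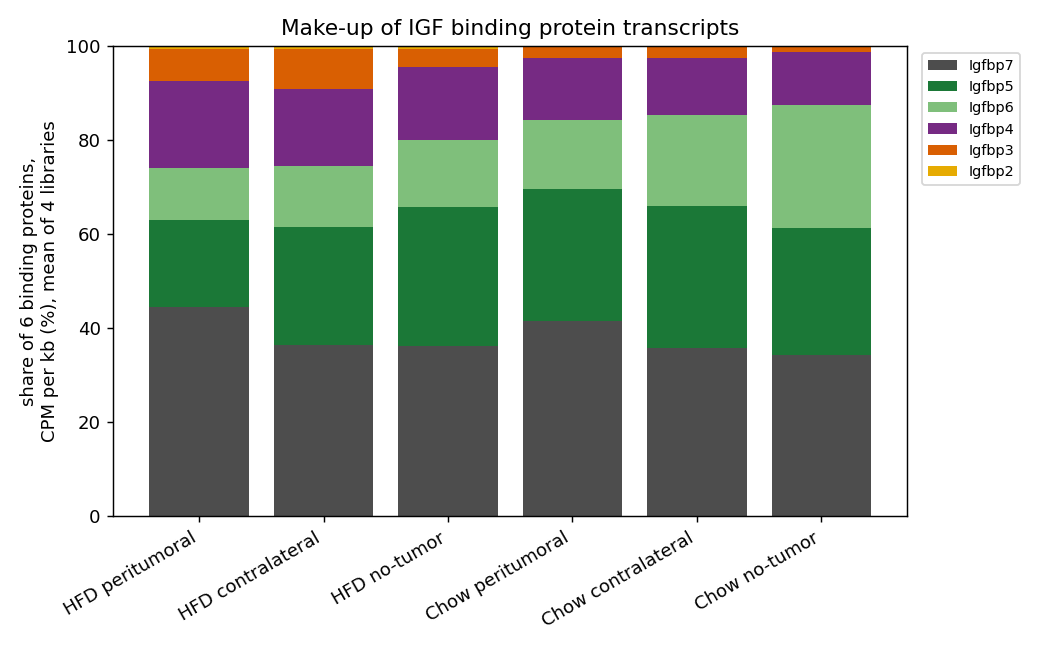
Share of each binding protein in the summed CPM per kb of Igfbp2 to Igfbp7 (y axis, %, mean of 4 libraries, stacked to 100) by group (x axis). The Igfbp3 share is larger on HFD at all 3 positions, and the Igfbp5 share is smallest in HFD peritumoral fat, at 18.4%.

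Carriers and processing proteins around the IGFs were read from a list of 10 genes, of which 8 were tested in each diet comparison. In contralateral fat HFD gave 4 higher and 2 lower of 8 tested (median 0.23), in peritumoral fat 1 higher and 2 lower of 8 (median 0.44) and in no-tumor fat 3 higher and 0 lower of 8 (median -0.052). These counts stand beside 24.5% higher and 24.8% lower over all genes in contralateral, 16.4% and 17.2% in peritumoral and 13.6% and 11.3% in no-tumor fat, with all-gene medians of -0.012, 0.017 and -0.016. They are the background of the other pathway lists as well. Pappa, the protease that cuts Igfbp4, had 3.26 ± 0.736 CPM in HFD contralateral and 8.34 ± 1.22 CPM in Chow contralateral fat, a log2 difference of -1.40 ± 0.17 (adjusted p = 6.59e-05). In peritumoral fat Pappa had 2.9 ± 0.67 CPM on HFD and 9.19 ± 0.905 CPM on Chow (-1.71 ± 0.19, adjusted p = 0.000531). Stc2, an inhibitor of Pappa, had 32.1 ± 15.6 CPM on HFD and 70.2 ± 8.06 CPM on Chow in peritumoral fat (-1.17 ± 0.31, adjusted p = 0.0199). Igfals, which joins IGFs and Igfbp3 or Igfbp5 in a ternary complex, had 41.4 ± 10.7 CPM on HFD and 23.2 ± 4.15 CPM on Chow in no-tumor fat (0.85 ± 0.22, adjusted p = 0.0281). In no-tumor fat Pappa had 4.08 ± 1.68 CPM on HFD and 5.71 ± 1.93 CPM on Chow (-0.48 ± 0.32, adjusted p = 0.315). A link between Pappa and Igfbp4 was not tested.

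Of the growth hormone axis list, all 8 genes were tested in each diet comparison. HFD gave 1 higher and 4 lower of 8 in contralateral fat (median -0.35), 0 higher and 3 lower of 8 in peritumoral fat (median -0.060) and 0 higher and 4 lower of 8 in no-tumor fat (median -0.54). Ghr, the growth hormone receptor, had 1302, 1423, 1454 and 1494 CPM in HFD contralateral fat, against 726, 825, 853 and 839.8 CPM in Chow contralateral fat. These groups did not overlap, with a log2 difference of 0.77 ± 0.082 (adjusted p = 2.4e-05). The diet difference in Ghr was larger in contralateral than in no-tumor fat by 0.76 ± 0.13 (adjusted p = 0.00111), a contrast in which Igf1 was also called.

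Socs2, an inhibitor of growth hormone signalling, had 12 ± 3.66 CPM in HFD contralateral fat and 36.7 ± 5.38 CPM in Chow contralateral fat. Its log2 difference was -1.65 ± 0.19 in contralateral (adjusted p = 0.000171), -1.67 ± 0.17 in peritumoral (adjusted p = 0.000379) and -1.85 ± 0.29 in no-tumor fat (adjusted p = 0.00364). Stat5a, a transcription factor that growth hormone activates, was lower on HFD at all 3 positions, with log2 differences of -0.66 ± 0.10 in contralateral (adjusted p = 0.000369), -0.86 ± 0.16 in peritumoral (adjusted p = 0.00335) and -0.58 ± 0.087 in no-tumor fat (adjusted p = 0.000522). Socs3, an inhibitor of cytokine signalling, had 45.7 ± 14.6 CPM in HFD peritumoral and 11.4 ± 0.744 CPM in HFD contralateral fat (2.01 ± 0.22, adjusted p = 0.000669). Ghr was lower in HFD peritumoral than in HFD contralateral fat, with a log2 difference of -0.54 ± 0.15 (adjusted p = 0.0249).

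**Figure D4:**
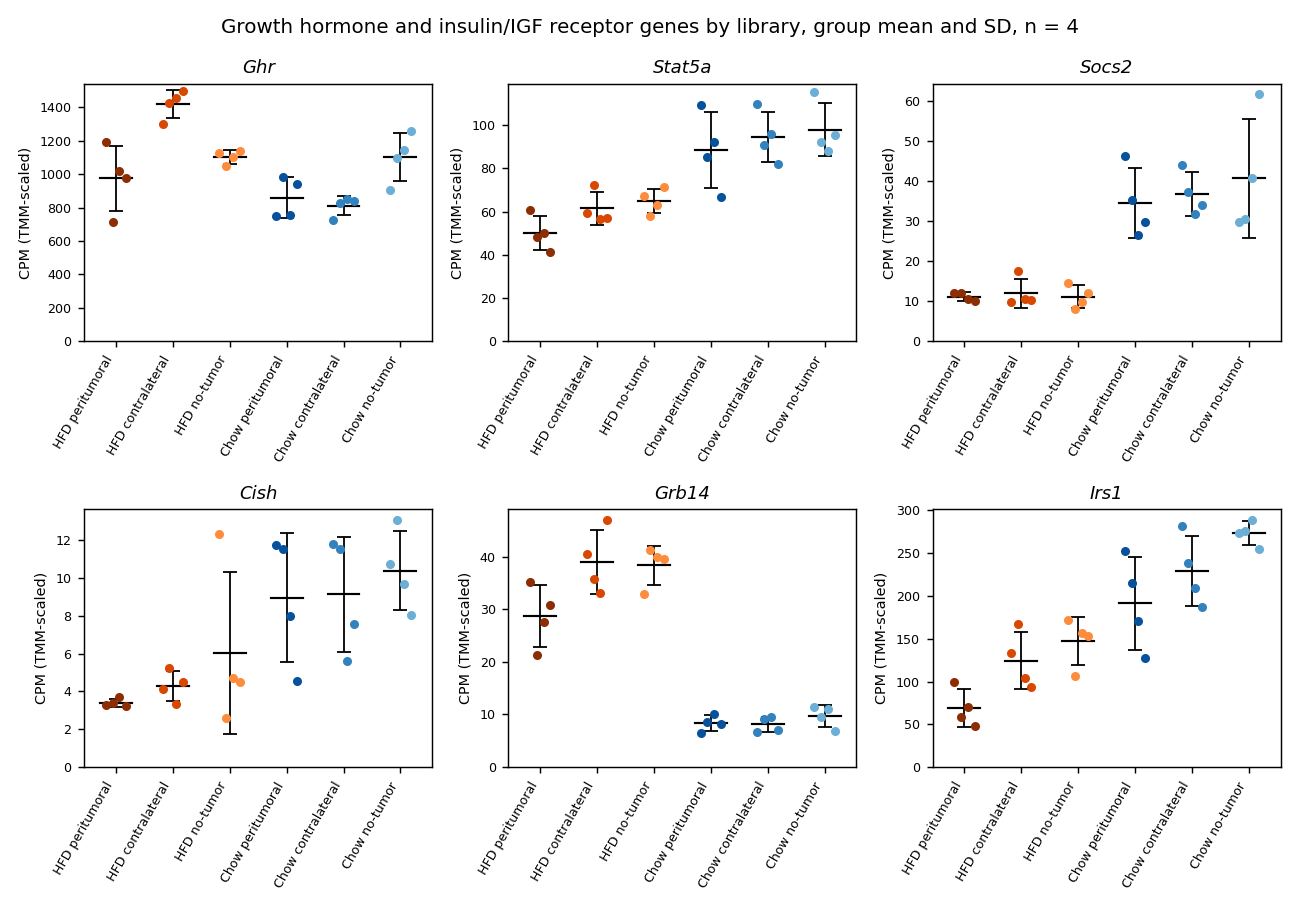
Level (y axis, TMM-scaled CPM on a linear axis from 0) of Ghr, Stat5a, Socs2, Cish, Grb14 and Irs1 by group (x axis); points are libraries, the long bar is the mean of 4 and the error bar 1 SD. Grb14 is higher and Socs2 lower on HFD at all 3 positions without overlap, and Ghr is highest in HFD contralateral fat, at a mean of 1418 CPM.

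Among receptor substrates and signal carriers, 17 of 18 tested, HFD gave 6 higher and 2 lower of 17 in contralateral fat (median 0.087), 1 higher and 4 lower of 17 in peritumoral fat (median 0.014) and 3 higher and 4 lower of 17 in no-tumor fat (median -0.077). Grb14, an adaptor that inhibits the insulin receptor, had 39 ± 6.08 CPM in HFD contralateral and 8.1 ± 1.41 CPM in Chow contralateral fat (2.24 ± 0.14, adjusted p = 1.53e-06). It was also higher on HFD in peritumoral fat (1.74 ± 0.18, adjusted p = 0.000464) and no-tumor fat (2.0 ± 0.14, adjusted p = 4.28e-06). Irs1, a docking protein of the insulin and IGF1 receptors, had 69 ± 21.9 CPM in HFD peritumoral and 192 ± 54.6 CPM in Chow peritumoral fat (-1.51 ± 0.25, adjusted p = 0.00282). In no-tumor fat Irs1 had 147 ± 28.2 CPM on HFD and 273 ± 14 CPM on Chow (-0.88 ± 0.13, adjusted p = 0.000688). In contralateral fat Irs1 had 124 ± 33.2 CPM on HFD and 229 ± 41 CPM on Chow, without overlap. Between the tumor sides on HFD this list gave 1 higher and 8 lower of 17 (median -0.40), with Pik3cb, Irs2 and Irs3 lowest in adjusted p, all 3 lower in peritumoral fat. Over all genes in that comparison, 16.8% were higher and 12.7% lower in peritumoral fat (median -0.024). Of the list on the Igf2 and Igf2r loci, 4 of 7 genes were tested, and Igf2bp2, which binds Igf2 mRNA, had 32.1 ± 17.5 CPM in HFD peritumoral and 7.96 ± 1.11 CPM in HFD contralateral fat (2.02 ± 0.39, adjusted p = 0.00699).

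Some cell type markers were called with diet at each position. Over all genes, 24.5% were higher and 24.8% lower on HFD in contralateral fat. The shares were 16.4% and 17.2% in peritumoral and 13.6% and 11.3% in no-tumor fat. In contralateral fat 10 of 12 mature adipocyte and 6 of 12 macrophage markers were higher on HFD, 9 of 10 skeletal muscle (47.8 to 77.9 CPM on HFD, 80.7 to 4996 CPM on Chow) and 4 of 9 mural cell markers were lower, and 10 of 10 tested mammary epithelium markers were also lower, with summed epithelial levels of 229 to 301 CPM on HFD and 512 to 584 CPM on Chow. Of all 12 epithelial markers listed, tested or not, Csn2 was at 0 in all HFD contralateral and all Chow no-tumor libraries. Csn2 had at most 9 counts in any library. Called the other way in contralateral fat were 1 mature adipocyte and 1 macrophage marker, both lower, and 1 mural cell marker, higher. In peritumoral fat 8 of 12 macrophage markers were higher on HFD (2778 to 3996 CPM on HFD, 1409 to 2425 CPM on Chow) and 7 of 10 epithelial and 4 of 9 mural cell markers were lower (epithelial sums 90.3 to 333 CPM on HFD, 465 to 577 CPM on Chow). In no-tumor fat 6 of 12 mature adipocyte markers were higher and 4 of 10 epithelial markers lower. There 11 of 12 endothelial markers (1117 to 1161 CPM on HFD, 709 to 754 CPM on Chow) and 7 of 9 mural cell markers were higher (1134 to 1269.5 CPM on HFD, 768 to 926 CPM on Chow), and 6 of 12 stromal markers were lower (7830.0 to 8858 CPM on HFD, 8306 to 10591 CPM on Chow). Their part in the IGF results was not tested.

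The genes with the pattern most like 3 of the 10 were sought by the root mean square difference in log2 CPM, each gene centred on its mean over the 24 libraries, among 10735 or 10736 genes with a mean of at least 5 CPM. For Igfbp3 they included Arhgef37 (0.356) and Fam198b (0.369), where the Igfbp3 pattern itself had a root mean square of 0.910 about its mean. For Igfbp2 they were Cdr2 (0.49), Zdhhc2 (0.494) and Jpt2 (0.495), against 0.996 for Igfbp2 itself. For Igfbp6 they were Akr1c18 (0.264), Mettl7a1 (0.308) and Osr2 (0.313), against 0.653 for Igfbp6 itself. All libraries and their depth are shared between the genes compared, and the measure is a description.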

How the data were processed

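The values were raw counts per gene, which the authors deposited as 1 matrix of 39017 genes by 24 libraries with exon coordinates and exon bases on mm10. The submitters' processing notes name TopHat, DESeq and mm10, with no versions, and the strand setting and counting tool are not given in the sources used here. Gene IDs were matched to symbols for 37607 genes.

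Groups came from the sample labels. All peritumoral libraries are labelled L and all contralateral and no-tumor libraries R. Nearness to the tumor and the side these letters mark therefore cannot be told apart. The robust quasi-likelihood F test of edgeR 4.0.16 (R 4.3.3, TMM factors) was run on the 8 libraries of each pair of groups and on the 16 libraries of each interaction. The low-count filter was filterByExpr (count minimum 10, total minimum 15). Benjamini-Hochberg adjustment ran over all genes tested, and calls were made below 0.05. The fits were tested on simulated data.

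Total counts of 9.13 to 18.2 M put 10 counts of a rare gene such as Igfbp2 near the lower limit of precision. Replicates of a group differed by more than sampling noise, and Chow contralateral replicate 2 stood apart. Chow no-tumor replicate 2 had a mean chi-square per gene of 35.5 to 55.5 against the rest of its group. The rest had 11.0 to 16.2 among themselves. Same-numbered libraries deviated together with a correlation over 0.1 for every number in none of the 7 comparisons, so the numbers were not taken to pair libraries. Whether peritumoral and contralateral libraries come from the same mice is not stated in the labels. The main tests between the sides treated these libraries as independent, which same-mouse pairs would not be.

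Named genes were the 10 IGF genes, up to 3 called members of each pathway list per comparison with the lowest adjusted p, and the 3 genes most like each IGF gene whose group means span at least 2-fold, of which 1 is not reported here. The members and lists were chosen with earlier results of these data known. Lists are described by counts of calls and medians, without a list test. Alternatives were DESeq2 1.42.0, RLE size factors, no filter on low counts, all 24 libraries in 1 fit, the replicate number as a block and leaving out each library. Promoter windows came from RefSeq on GRCm38.p6.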

Additional observations from a re-analysis of the deposited data

Results flagged for a closer look

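Igfbp3 in Chow peritumoral replicate 2 was 50.4 CPM, far above the other 3 libraries of that group, which had 35.6 to 36.9 CPM. It was the only library set apart in this way among 60 sets of 4 values (10 genes in 6 groups), where chance sets apart about 1 in 20. All 12 HFD libraries were still above it, at 64.5 CPM or more.

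The diet difference in Igf1 was larger in contralateral than in no-tumor fat, by 0.80 ± 0.21 on the log2 scale (edgeR, adjusted p = 0.0177). Contralateral libraries averaged 324 CPM on HFD and 214 CPM on Chow, and no-tumor libraries averaged 258 CPM on HFD and 306 CPM on Chow. It passed under all 21 alternatives run, with values from 0.68 to 0.92.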

How the results depend on the processing

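Of the 17 calls on the 10 IGF genes, 11 were kept under every alternative run: Igfbp3 for diet at all 3 positions and between contralateral and no-tumor fat on Chow, Igfbp2 for diet in contralateral and peritumoral fat, Igfbp4 for diet in contralateral and no-tumor fat, and Igf1 and Igf1r for diet in contralateral fat with Igf1 in the interaction with tumor bearing. The other 6, of Igf2r, Igfbp5 and Igfbp6, were lost under at least 1 alternative, and their values without single libraries stand beside the results. RLE size factors changed no call. With no filter on low counts the Igf2r calls were lost at -0.14 (contralateral diet), -0.31 (peritumoral diet) and -0.20 (contralateral against no-tumor fat on HFD), and Igfbp6 at -0.43. All 24 libraries in 1 fit lost the Igf2r calls for contralateral diet and for contralateral against no-tumor fat on HFD, and Igfbp6. The cause was not tested. Genes near 10 counts, such as Igfbp2 on Chow, are limited by depth.

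Numbers of IGF genes called moved as follows, with the number of all genes called in the same setting in parentheses. Diet in contralateral fat gave 7 (7847) in the main fit, 5 (8163) with no filter and 5 (7498) with all 24 libraries. Leaving out 1 library gave 5 to 8 (7084 to 7555). Diet in no-tumor fat gave 2 (3943) in the main fit, 4 (3839) with DESeq2 and 4 (3074) with all 24 libraries in 1 fit. Leaving out 1 library gave 2 to 4 (2990 to 4592). Diet in peritumoral fat gave 4 (5353) in the main fit, 6 (8799) with all 24 libraries and 6 (5277) with the replicate block. Leaving out 1 library gave 2 to 5 (3102 to 6003). Between the tumor sides on HFD there were 1 (4610) in the main fit, 3 (5250) with DESeq2 and 2 (6332) with all 24 libraries. The replicate block gave 3 (5144) there, and leaving out 1 library gave 0 to 3 (2750 to 6425). Between contralateral and no-tumor fat on HFD there were 1 (956) in the main fit, 2 (1262) with DESeq2 and 0 (1109) with no filter. The replicate block gave 0 (629) there, and leaving out 1 library gave 0 to 1 (365 to 1220). On Chow the main fit gave 1 (1268), DESeq2 3 (1574) and leaving out 1 library 1 to 2 (375 to 1986). For diet by tumor side there were 0 (0) in the main fit and 0 to 1 (0 to 1911) leaving out 1 library. Diet by tumor bearing gave 1 (3314) in the main fit, 2 (3533) with DESeq2 and 2 (3022) with the replicate block. Leaving out 1 library gave 1 to 3 (2435 to 3753) there.

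Numbers of all genes called moved too. All 24 libraries in 1 fit gave 8799 for diet in peritumoral fat, 238 and 692 for contralateral against no-tumor fat on HFD and on Chow, 333 for diet by tumor side and 1556 for diet by tumor bearing. DESeq2 gave 15 between the tumor sides on Chow and 727 for diet by tumor side, and no filter gave 3 and 7. Leaving out 1 library gave 3102 to 6003 for diet in peritumoral fat, 2750 to 6425 and 0 to 1 between the tumor sides on HFD and on Chow, 365 to 1220 and 375 to 1986 for contralateral against no-tumor fat on HFD and on Chow, and 0 to 1911 for diet by tumor side.

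The replicate number as a block gave 629 genes for contralateral against no-tumor fat on HFD, 356 on Chow and 43 for diet by tumor side. With the block, these calls were gained: Igfbp6 for diet in no-tumor fat (-1.01, adjusted p = 0.000253), Igf1r (-0.37, 0.0444) and Igfbp6 (-0.63, 0.0286) for diet in peritumoral fat, Igfbp3 (-0.74, 0.0130) and Igfbp6 (-0.64, 0.00784) between the tumor sides on HFD, and Igf1r (-0.32, 0.0419) for diet by tumor bearing. The Igf2r call between contralateral and no-tumor fat on HFD was lost (-0.21, adjusted p = 0.0893). Between the tumor sides on HFD the same-numbered correlations were -0.13, 0.12, 0.23 and 0.38. The block turned the uncalled Igfbp2 difference between the tumor sides on HFD to 0.011. Other uncalled values near 0 also turned sign. For Igfbp5 between contralateral and no-tumor fat on Chow it was -0.00047 with DESeq2, -0.0097 with no filter, -0.0023 with all 24 libraries and -0.065 to 0.059 leaving out 1 library. Leaving out 1 library gave -0.066 to 0.052 for Igfbp5 by diet in no-tumor fat, -0.072 to 0.12 for Igf1 by diet in peritumoral fat and -0.13 to 0.14 for Igfbp2 between the tumor sides on HFD. It gave -0.016 to 0.11 for Igfbp4 between the tumor sides on Chow, and -0.33 to 0.26 for Igfbp2 and -0.23 to 0.057 for Igfbp6 between contralateral and no-tumor fat on HFD. It gave -0.35 to 0.045 for Igfbp6 by diet and tumor side, and -0.036 to 0.65 for Igfbp2 by diet and tumor bearing.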
